A study of Mus musculus with 2 samples.

Results

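The 10 circadian clock genes examined here are Clock, Arntl (also called Bmal1), Npas2, Per1, Per2, Per3, Cry1, Cry2, Dbp and Tef. They were chosen by name, with no cut on a measured value, and all 10 were found among the 21461 nuclear protein-coding genes of the tables. RNA came from kidneys of mouse embryos of the B6NCrl strain at 15.5 days of embryonic age, with no treatment, and males and females were mixed. The single group, embryonic kidney, held 2 biological replicate libraries, of 78 pooled embryos in replicate 1 and 62 in replicate 2. Each was made from 10 ng of total RNA and covered fragments over 200 nt. The time of day at which kidneys were collected is not given in the sources used here, and a pool of embryos gives only their average.

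The clock is a feedback loop of transcription that runs in most cells of the body. CLOCK or its relative NPAS2 pairs with ARNTL and switches on genes that carry an E-box, among them the Per and Cry genes, whose proteins return to block the pair. A further loop of REV-ERB repressors and ROR activators sets Arntl, and the bZIP proteins DBP and TEF act on a related element, the D-box. In the adult kidney this clock is known for daily rhythms in salt and water handling.

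The total expected count (estimated reads, spike-ins included) was 36244861 in replicate 1 and 39415002 in replicate 2. Kidney identity was checked with 7 marker genes, and all 7 were detected in both libraries, with a median of 101 TPM, a level adjusted for transcript length and library depth. Markers of neighbouring organs were also present and differed between the pools. The summed TPM of 7 adrenal cortex markers was 47.1 and 153 in replicates 1 and 2, that of 5 chromaffin and nerve markers 16.9 and 96.1, that of 5 liver markers 211 and 416, and that of 5 skeletal muscle markers 347 and 190. Every one of these organ markers was detected in both libraries. With 1 group, no comparison between conditions was possible, and no p was computed. Nothing in the labels says how far the pools differ beyond their embryos, so the spread between libraries may be partly technical.

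The DNA elements through which the loop is described are shown first, because several members carry them close to an annotated start. Windows reaching from 250 bases before to 50 bases after each RefSeq start (build GRCm38.p6, the same assembly as mm10) matched 9 of the 10 members and gave 14 windows. Per2 had no entry. Each line gives 30 bases, 5′ to 3′ on the strand of the gene, with the element in capitals.

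Per1 E-box, chr11:69098771-69098800, plus strand: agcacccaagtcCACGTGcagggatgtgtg
Cry1 E-box, chr10:85185097-85185126, minus strand: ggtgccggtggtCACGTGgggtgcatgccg
Tef E-box, upstream start, chr15:81802534-81802563, plus strand: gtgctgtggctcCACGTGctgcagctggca
Tef E-box, downstream start, chr15:81811264-81811293, plus strand: cacctggcccagCACGTGtctacatcgttt
Cry1 E-box variant, chr10:85185116-85185145, minus strand: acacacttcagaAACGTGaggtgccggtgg
Cry2 E-box variant, chr2:92434218-92434247, minus strand: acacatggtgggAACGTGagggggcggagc
Per3 D-box, distal, chr4:151044852-151044881, minus strand: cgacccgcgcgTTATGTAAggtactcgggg
Per3 D-box, proximal, chr4:151044805-151044834, minus strand: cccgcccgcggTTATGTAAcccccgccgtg
Arntl AGGTCA match, chr7:113207530-113207559, plus strand: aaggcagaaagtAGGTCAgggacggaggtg
Clock AGGTCA match, chr5:76303604-76303633, minus strand: agctttggcctcTGACCTgacagatgacag
Per1 AGGTCA match, chr11:69098800-69098829, plus strand: gtgacacagcccTGACCTcagtgggggcca

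The E-box CACGTG was present in 4 of the 14 member windows, belonging to Per1, Cry1 and both starts of Tef, against 7.15% of all 32851 windows. It began 166 bases before the Per1 start, 60 before the Cry1 start, and 127 and 138 before the upstream and downstream Tef starts. The variant CACGTT was found in Cry1 and Cry2, on the opposite strand in both, and in 4.68% of all windows. The D-box TTATGTAA occurred in 1 member window, that of Per3, which held it at 205 and at 158 bases before the start. Of all windows, 0.938% held it at least once and 0.0213%, 7 windows, at least 2 times. The letters TTACGTAA and the cyclic AMP element TGACGTCA were in none of the member windows and in 0.119% and 1.79% of all windows. The core AGGTCA of the element read by ROR and REV-ERB proteins was in 1 window each of Arntl, Clock and Per1, and in 16.3% of all windows. In Arntl it lay 31 bases after the second of its starts, and in Clock and Per1 it was on the opposite strand, 119 and 137 bases before a start. That Clock start, 76303502, lies inside the span of Clock-201, the only listed transcript, which begins at 76304548 on the minus strand. The Per1 window with the E-box and this match likewise lies within the span of Per1-202, which begins at 69095217. Both strands were searched for each set of letters, none of the matches overlapped, and a match describes the sequence only.

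Of the 10 clock genes, 9 were detected, meaning 1 TPM or more in both libraries, against 62.3% of all nuclear protein-coding genes. The exception was Npas2. The members had a median of 6.31 TPM, below the median of 19.5 TPM over the 13374 detected protein-coding genes. Cry1 and Tef lay above that median, Tef narrowly at a mean of 20.5 TPM over all its forms, and the other 8 below it. The error against which levels were compared was read from the libraries themselves, as the log2 TPM ratio, in size, that 95% of detected protein-coding genes of similar level stayed within. This replicate error was 0.87 between 1 and 3 TPM, 0.64 between 3 and 10, 0.34 between 10 and 30, and 0.26 between 30 and 100. Npas2 and other genes below 1 TPM were given the value for 1 to 3 TPM, which does not come from genes of their level. A difference of 2 genes in log2(TPM + 1) was taken as beyond it when each library exceeded the value for the lower gene in the same direction. The added 1 shrinks differences of low genes while the error is on log2 TPM, so that this comparison is stricter for them.

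**Figure D1:**
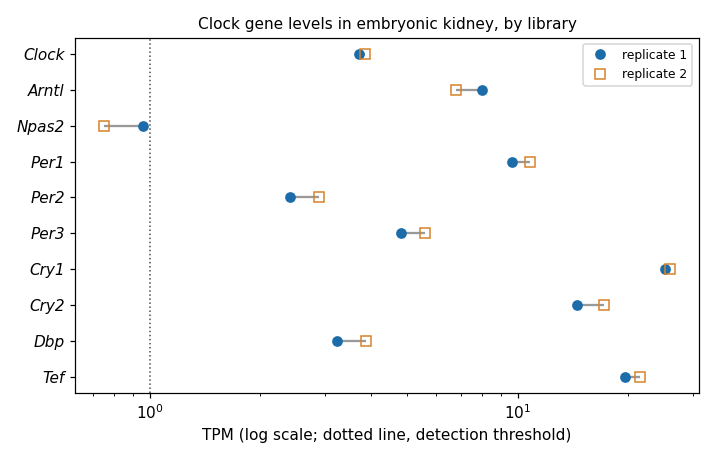
Levels of the 10 clock genes in TPM on a log axis, with filled circles for replicate 1 and open squares for replicate 2, joined by a line. Cry1, Tef and Cry2 lie above 14 TPM in both libraries, and Npas2 is the single gene left of the detection threshold of 1 TPM.

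Among the activators, Arntl was the most abundant. Arntl encodes the shared partner of CLOCK and NPAS2 (ENSMUSG00000055116.7, chromosome 7, 113207465 to 113314126, plus strand) and measured 8.02 TPM in replicate 1 and 6.79 TPM in replicate 2. Clock encodes the histone-acetylating partner (ENSMUSG00000029238.8, chromosome 5, 76209868 to 76304792, minus strand) and measured 3.71 and 3.85 TPM. On the scale of log2(TPM + 1), Clock minus Arntl was -0.81 ± 0.18 (SD, n = 2). Npas2, the stand-in for CLOCK in the brain and some other tissues (ENSMUSG00000026077.11, chromosome 1, 39193731 to 39363236, plus strand), was at 0.96 and 0.75 TPM from 61 and 71 reads. Arntl thus supplied 63.2% and 59.6% of the summed TPM of the 3 activators, and Clock was above Npas2 by 1.37 ± 0.15 and Arntl above Npas2 by 2.18 ± 0.034 on the same log2 scale.

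The Per genes encode repressors of the loop, of which Per1 and Per2 respond to light and hormones, and Per1 was the highest of the 3. Per1 (ENSMUSG00000020893.13, chromosome 11, 69095217 to 69109960, plus strand) measured 9.64 and 10.8 TPM in replicates 1 and 2. Per3 (ENSMUSG00000028957.8, chromosome 4, 151003652 to 151044665, minus strand) measured 4.81 and 5.61 TPM. Per2 (ENSMUSG00000055866.9, chromosome 1, 91415982 to 91459324, minus strand) was the lowest at 2.41 and 2.89 TPM. In both libraries the order was Per1, Per3, Per2, and all 3 were higher in replicate 2. Per1 exceeded Per2 by 1.62 ± 0.028 and Per3 by 0.86 ± 0.025 in log2(TPM + 1). The difference of Per2 and Per3, -0.77 ± 0.0027, did not pass the replicate error of 0.87 at the level of Per2. On log2 TPM without the added 1 it was -0.997 and -0.957 in replicates 1 and 2 and passed, so the call turned on the pseudocount. Both the order and the call take in all forms of Per3. Its full coding transcript, Per3-201, was alone at 2.58 and 3.22 TPM, close to Per2, and was not tested against it.

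The Cry genes encode the stronger repressors and were more abundant than the Per genes. Cry1 (ENSMUSG00000020038.9, chromosome 10, 85131700 to 85185064, minus strand) was the highest member at 25.2 and 26.0 TPM, above 57.7% of detected protein-coding genes. Cry2 (ENSMUSG00000068742.7, chromosome 2, 92403646 to 92434043, minus strand) measured 14.5 and 17.2 TPM. The Cry1 and Cry2 values did not overlap, and Cry1 minus Cry2 was 0.66 ± 0.13 in log2(TPM + 1), beyond replicate error. Summed over genes, the Cry pair reached 39.7 and 43.2 TPM, the Per genes 16.9 and 19.3, and the 3 activators 12.7 and 11.4. The 5 repressor genes together therefore stood at 4.46 and 5.49 times the activators in replicates 1 and 2. That ratio sets 5 genes against 3, so part of it is gene number. The sums also include forms not annotated as protein-coding, 46.4% and 42.6% of Per3 and 17.5% and 22.1% of Cry2. These sums were formed after the values had been seen.

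Dbp and Tef encode PAR bZIP factors, which carry the clock's rhythm to output genes through the D-box, and their levels were far apart. Tef (ENSMUSG00000022389.10, chromosome 15, 81802421 to 81826863, plus strand) measured 19.6 and 21.5 TPM. Dbp (ENSMUSG00000059824.6, chromosome 7, 45705088 to 45710203, plus strand) measured 3.22 and 3.87 TPM. Tef therefore held 85.9% and 84.7% of their sum, and Dbp minus Tef was -2.25 ± 0.056 in log2(TPM + 1). These levels take in all forms of both genes. Of Tef, 32.45% and 32.35% in replicates 1 and 2 was in forms not annotated as protein-coding, and the forms of Dbp are given below. The Dbp value rested on 106 and 129 reads, and 539 exonic bases of Dbp overlap Sphk2, a sphingosine kinase gene on the opposite strand at 23.1 and 27.3 TPM. Strand use in the counting is not stated in the sources used here, and reads of Dbp and Sphk2 may not be fully separated. Shorter overlaps with opposite-strand genes were found for Cry2 (295 bases, with D930015M05Rik at 0.57 and 0.26 TPM) and Tef (193 bases, with Gm17597 at 0.24 and 0.52 TPM). Arntl overlaps Gm45355, also on the opposite strand, by 33 bases, and Gm45355 was not analysed here.

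In order of mean level the members ran Cry1, Tef, Cry2, Per1, Arntl, Per3, Clock, Dbp, Per2 and Npas2, and few neighbours in that order could be separated. A neighbour was separated by the same measure, here on log2 TPM without the added 1. Of the 9 neighbouring steps, 2 passed. Cry2 lay 1.51- and 1.59-fold above Per1 in replicates 1 and 2, and Per2 lay 2.51- and 3.85-fold above Npas2. Per1, at a mean of 10.2 TPM, took the error of 0.34 for 10 to 30 TPM. Its log2 TPM difference from Cry2 in replicate 1, 0.59, was under the error of 0.64 for 3 to 10 TPM, so that call rests on the division of levels. Cry1 and Tef differed by 1.28- and 1.21-fold and Tef and Cry2 by 1.35- and 1.25-fold, which did not pass in both libraries. Clock and Dbp changed places, with Clock at 1.15 times Dbp in replicate 1 and 0.995 times in replicate 2. With 2 libraries of a single group, no pattern across conditions existed by which other genes could be matched to a member.

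No clock gene differed between the 2 pools by more than replicate error. Beyond 1.5-fold in TPM there were 0 of the 9 detected members, against 3.59% of detected protein-coding genes, and there were 0 as well with edgeR's TMM scaling of the counts. Among the 9, 8 had the higher TPM in replicate 2, against 55.0% of detected protein-coding genes, and the one with the lower TPM there was Arntl. The median log2 ratio, replicate 2 over replicate 1, was 0.17 for the 9 members and 0.02 for all detected protein-coding genes. For the absolute log2 ratio the medians were 0.22 and 0.10. Low genes vary more, with medians of 0.23 at 1 to 3 TPM, 0.15 at 3 to 10 TPM and 0.095 at 10 to 30 TPM. By mean level Per1, Cry1, Cry2 and Tef lay between 10 and 30 TPM, with absolute log2 ratios of 0.17, 0.046, 0.24 and 0.13.

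**Figure D2:**
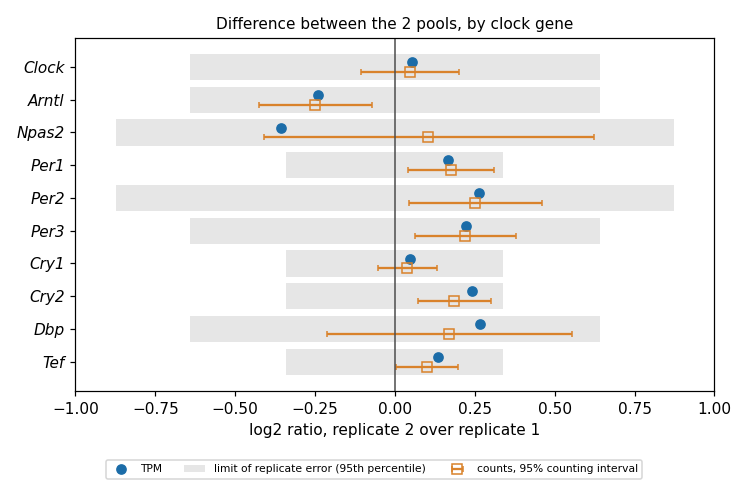
Log2 ratio of replicate 2 over replicate 1 for each clock gene, with blue circles for TPM and orange squares for scaled counts with their exact 95% counting interval. Grey bars span the replicate error for genes of similar level (for Npas2, that of genes of 1 to 3 TPM), and every point lies inside its bar, with Arntl left of 0 on both scales.

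Counting error alone was small enough to place several of these shifts on one side of 1. Reads were scaled to the total of nuclear protein-coding genes, and each ratio has an exact Clopper-Pearson interval at 95% that covers counting error only. The interval left out 1 for 6 of the 10 members, all among the 9 detected, against 40.0% of detected protein-coding genes. Arntl had 551 and 502 reads and a scaled ratio of 0.842 (0.744 to 0.952). Per2 had 339 and 437 reads and a ratio of 1.19 (1.03 to 1.38), and Per3 582 and 734 reads with 1.17 (1.04 to 1.301). Cry2 followed at 1.14 (1.05 to 1.23), Per1 at 1.13 (1.03 to 1.24) and Tef at 1.07 (1.003 to 1.15). With edgeR's TMM scaling the ratio of Tef was 1.06, and no interval was computed for it. That change in the ratio of Tef is larger than the margin by which its lower end passed 1, so its place among the 6 depends on the scaling. The ratio was 1.03 for Clock (0.929 to 1.15) and for Cry1 (0.963 to 1.095), 1.12 for Dbp (0.863 to 1.47) and 1.08 for Npas2 (0.753 to 1.54), all with 1 inside. Arntl was thus lower in replicate 2 while Per1, Per2, Per3, Cry2 and Tef were higher, all within the spread seen between these pools for other genes of their level. The marker sums of adrenal cortex, chromaffin and nerve, and liver were also higher in replicate 2, by 3.24-, 5.7- and 1.97-fold, and that of skeletal muscle was 0.548 of its replicate 1 value. Their part in the clock gene shifts was not tested. In bulk tissue, fewer cells of a type and less RNA per cell cannot be told apart.

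For Npas2 the deposited TPM and the reads pointed in opposite directions. Its TPM ratio was 0.781, whereas its scaled read ratio was 1.08. The difference lay in Npas2-203, a short transcript of 484 nt, which was assigned 3.77 reads in replicate 1 and 1.12 in replicate 2. Through its short length these few reads gave 0.40 and 0.11 TPM, or 41.5% and 14.7% of the gene. The full-length Npas2-201, of 4236 nt, held 57.2 and 69.9 reads and 0.56 and 0.64 TPM, with the higher value in replicate 2.

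Transcript shares were the authors' percent of a gene's transcripts, and they divided the members into simple and mixed genes. Clock, Arntl and Cry1 each had 1 listed transcript, and Per2 had all of its reads on Per2-201, with none on its other listed transcript, Per2-202. Of the 10 members, 8 had the same leading transcript above 50% in both libraries, these 4 included. For Clock, Arntl and Cry1 this was fixed by their having 1 listed transcript. No such share was computed for other genes, so the count does not set clock genes apart. Cry2-201, which codes for protein, held 68.1% and 65.8% of Cry2 in replicates 1 and 2. Of Cry2, a further 13.1% and 14.3% was Cry2-203 and 14.4% and 12.0% Cry2-202. Dbp-201 held 58.3% and 54.3% of Dbp, and the remaining 41.7% and 45.7% went to transcripts whose identifiers are not in the later GENCODE release M21. The largest of those, of 801 nt, had 25.0% and 25.2% from 13.8 and 18.1 reads.

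**Figure D3:**
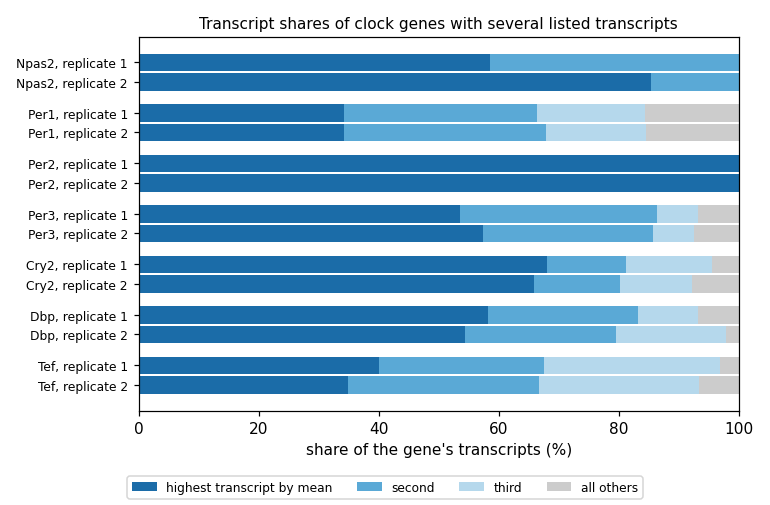
Stacked bars of the share of each gene's transcripts (percent) held by its 3 highest transcripts by mean and by all others, for the 7 clock genes with more than 1 listed transcript, replicate 1 above replicate 2. Per1 and Tef have no transcript above 50%, and the bars of Npas2 differ most between libraries.

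Per3 was split between a full coding transcript and forms without an intact reading frame. Per3-201, of 5999 nt, held 53.6% and 57.4% in replicates 1 and 2. Per3-204, annotated as a processed transcript that begins inside the gene, held 32.8% and 28.3% from 138 and 149 reads, with a posterior SD from the authors' quantifier of 24.0 and 26.1 reads. Forms annotated as non-coding, retained-intron or subject to nonsense-mediated decay added up to 46.4% and 42.6% of Per3. The start that carries the pair of D-boxes shown above is that of Per3-201, and transcripts beginning there summed to 60.5% and 64.8% of the gene.

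The estimated shares of Tef were divided mainly between an upstream and a downstream start region. Transcripts from the upstream region, with starts between 81802421 and 81802826 on chromosome 15, summed to 57.9% and 62.9% of Tef in replicates 1 and 2. Those from the downstream region, between 81811046 and 81812159, summed to 40.1% and 35.8%. A further region, between 81820593 and 81820943, held 1.98% and 1.22%. The leading coding transcripts were Tef-201 of the downstream region at 40.1% and 35.0% and Tef-202 of the upstream region at 27.5% and 31.8%. The remaining large form, Tef-203, is annotated as a retained intron of the upstream region and held 29.3% and 26.6%. The reads of Tef-201 were 765 and 789, with a posterior SD of 51.5 and 62.0. The upstream and downstream regions each had 1 window with an E-box, as shown above. The upstream window, however, lies after the annotated start of Tef-202 and so within its span.

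Per1 was spread over 3 start regions, and the authors' quantifier resolved 2 of its forms poorly. The region at 69100152 to 69100522 on chromosome 11 held 52.2% and 50.8% of Per1 in replicates 1 and 2, led by Per1-206 at 34.2% and 34.2%. Per1-202, which begins at 69095217, held 32.2% and 33.8%. Per1-201, whose start at 69098948 is the one nearest the E-box shown above, held 15.6% and 15.4%. The reads of Per1-201 were 168 and 201 with a posterior SD of 128 and 166, and those of Per1-206 were 366 and 442 with a posterior SD of 129 and 163. The posterior SD of Per1-201 was thus close to its own read number, while its share differed little between libraries. The short Per1-204, of 496 nt, took 18.1% and 16.6% from 16.9 and 18.8 reads.

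Beyond the 10 members, 29 companion genes of the clock and its outputs were taken from 4 lists. Of these, 26 were detected in both libraries, against 62.3% of all nuclear protein-coding genes. The nuclear receptors that set Arntl were present at modest levels, with 3 of 4 detected. Nr1d2, which encodes REV-ERB beta, measured 7.66 and 7.55 TPM in replicates 1 and 2, above Nr1d1 (REV-ERB alpha) at 1.67 and 1.89 TPM. Nr1d1 minus Nr1d2 was -1.63 ± 0.094 in log2(TPM + 1), and Arntl exceeded Nr1d1 by 1.59 ± 0.23. Of the ROR activators, Rora measured 6.36 and 7.15 TPM, and Rorb was below 1 TPM at 0.18 and 0.28.

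**Figure D4:**
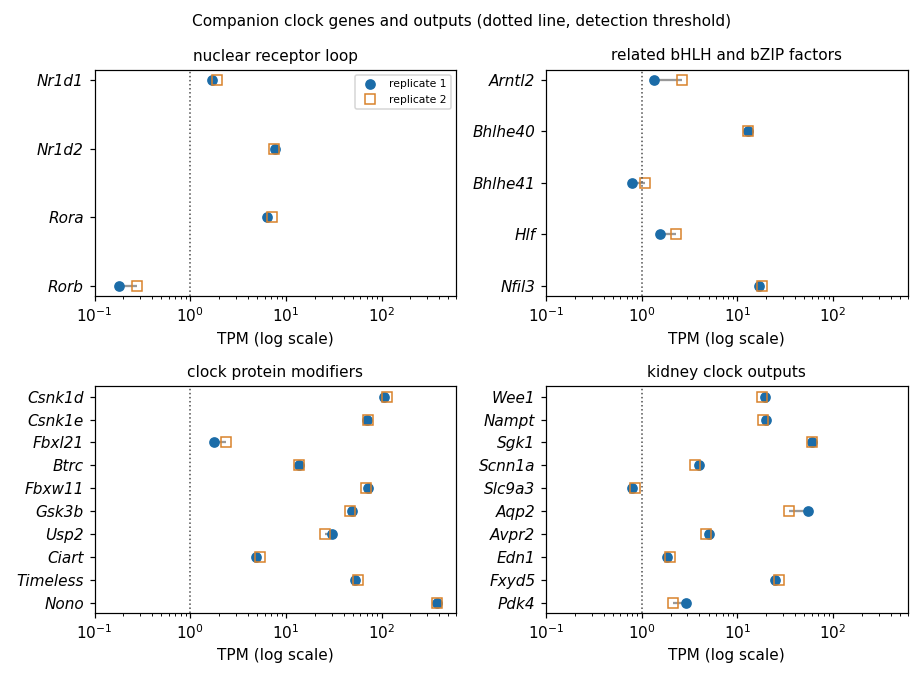
Levels of the 29 companion genes in TPM on log axes, in 4 panels by list, with filled circles for replicate 1 and open squares for replicate 2. Nono is the highest at 382 and 376 TPM, and Rorb, Bhlhe41 and Slc9a3 lie under the dotted threshold of 1 TPM in at least 1 library.

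Relatives and opponents of the members covered a wide range. Nfil3, a bZIP repressor that competes with DBP and TEF for the D-box, measured 16.7 and 18.2 TPM, and Dbp minus Nfil3 was -2.03 ± 0.064 in log2(TPM + 1). Hlf, the third PAR bZIP gene, was at 1.57 and 2.29 TPM, below Tef by 2.89 ± 0.16, while its difference from Dbp, 0.64 ± 0.11, was within replicate error. Bhlhe40, a repressor that binds E-boxes, measured 12.8 and 12.9 TPM against 0.79 and 1.09 for its paralog Bhlhe41. Arntl2, the paralog of Arntl, was at 1.35 and 2.64 TPM, a ratio of 1.96, so that Arntl minus Arntl2 was 1.94 in replicate 1 and 1.10 in replicate 2. In scaled reads the ratio of Arntl2 was 1.37 (1.02 to 1.85), from 78 and 116 reads.

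The list of clock protein modifiers also holds partners such as Nono. All 10 of its genes were detected, against 62.3% of all nuclear protein-coding genes. Their median was 51.5 TPM, against 6.31 TPM for the clock genes. Nono, an RNA-binding partner of PER proteins, was the highest at 382 and 376 TPM in replicates 1 and 2. The casein kinases that phosphorylate PER, Csnk1d and Csnk1e, had means of 109 ± 5.1 and 71.1 ± 1.35 TPM (SD, n = 2), a difference of 0.62 ± 0.04 in log2(TPM + 1). Fbxl21, which encodes an F-box protein that binds CRY proteins, was the lowest at 1.76 and 2.34 TPM. The ratios of this list between the pools ran from 0.851 to 1.33, and none passed 1.5-fold, against 3.59% of detected protein-coding genes.

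Of 10 genes known as clock outputs in the adult kidney, 9 were detected, against 62.3% of all nuclear protein-coding genes. The median of the 10 was 11.8 TPM. Sgk1, a kinase that regulates sodium channels, was the highest at 60.4 and 60.9 TPM. Slc9a3, the sodium-proton exchanger of the proximal tubule, was below 1 TPM at 0.80 and 0.86. The water channel gene Aqp2 was the one output beyond 1.5-fold between the pools, at 54.4 and 34.5 TPM, a ratio of 0.634. Of detected protein-coding genes, 3.59% were beyond 1.5-fold.

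Of the 17 gene pairs compared in log2(TPM + 1), 15 differed beyond replicate error in both libraries. No such share was computed for other gene pairs, so the count does not set clock genes apart. The other 2 were Per2 and Per3, and Dbp and Hlf. On log2 TPM with no pseudocount 16 pairs differed, and Dbp and Hlf, at 1.04 and 0.76, was the one that did not. Among the Per and Cry pairs, Per1 over Per2, Per1 over Per3 and Cry1 over Cry2 differed, and Per2 and Per3 did so on log2 TPM but not with the added 1.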

How the data were processed

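Total RNA was sequenced from 2 libraries of 1 group. Per the text files deposited beside the tables, reads were aligned to mm10 and quantified with GENCODE annotation M4, and the aligner and quantifier are not named in the sources used here. The authors deposited expected counts (estimated reads), TPM, FPKM and, per transcript, the percent of its gene, and these were read per the file headers. The posterior SD of a count is also the authors' own and is not replicate error. GENCODE M21, on the same build, gave gene symbols and positions, matched by identifier for 42462 of 43346 mouse genes (98.0%). Of 38 member transcripts, 34 had an M21 identifier, 30 with the same length.

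Detection was 1 TPM in both libraries. Pairs used a pseudocount of 1. Exact intervals used counts rounded to whole numbers (SciPy 1.17.1). Start regions joined starts within 1000 bases. edgeR 4.0.16 (TMM) and DESeq2 1.42.0 (size factors) served as alternative scalings of the rounded counts. The ratio calculation was tested on simulated data. The members, the gene lists, pairs and alternatives were chosen with earlier results of these data known.

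Named companions are the highest and lowest of each list, any below 1 TPM in both libraries, any in a pair and any beyond 1.5-fold. Other lists give the highest gene and the one with the largest ratio. Per1-201 and the genes overlapping a member were named for their position, and Rora after its values were seen. A few companion genes and pairs are not reported here, and the counts leave them out.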

Additional observations from a re-analysis of the deposited data

How the results depend on the processing

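At 0.5 TPM all 10 members were detected, and at 5 TPM 5 were, while the companions detected went from 26 to 17 at 5 TPM. The share of all nuclear protein-coding genes was not computed at 0.5 or 5 TPM, so these counts do not set clock genes apart. For scale, 10738 of the 21461 were detected with a mean above that of Per3, 5.21 TPM. The median level of the members, 6.31 TPM, was 9.57 as a mean, 4.24 in FPKM and 7.96 with TPM rescaled over nuclear protein-coding genes, since each changes the summary or the unit. With the 99th percentile as replicate error, 1 neighbouring step of the order was separated in place of 2, and 10 pairs in place of 15. With a pseudocount of 0.1, or with none (added after seeing the data), 16 pairs were separated, Per2 and Per3 among them. From 1 library alone, between 3 (without replicate 1) and 5 (without replicate 2) steps were separated. The log2 ratio of Npas2, -0.36 in TPM, was 0.087 with edgeR's TMM factors and 0.086 with DESeq2's size factors, and no other member changed sign under FPKM, TMM, DESeq2 or rescaled TPM. The count of members beyond 1.5-fold was 0 under each of these, and the median log2 ratio of the members ranged from 0.14 to 0.18. No paired analysis was possible because there is 1 group. Depth limits Npas2 and Dbp most, with 61 to 129 reads.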

Other observations

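Per1 is known as a target of glucocorticoids and of immediate early signalling, and both programs were read beside it. Of 6 genes of the glucocorticoid response, 5 were detected in both libraries, against 62.3% of all nuclear protein-coding genes. The highest was Tsc22d3, a leucine zipper gene, at 81.0 and 79.6 TPM in replicates 1 and 2. The largest ratio in that list was that of the transcription factor gene Zbtb16, at 0.62 and 0.92 TPM. Of 10 immediate early genes, 9 were detected, against the same 62.3%. Ier2 was the highest at 60.2 and 65.1 TPM, and Fosb, below 1 TPM at 0.07 and 0.15, had the largest ratio. The summed TPM of these lists was 168 and 173, and 176 and 181. Among the markers of neighbouring organs, the ratios of replicate 2 over replicate 1 farthest from 1 in each list were those of the steroid enzyme gene Cyp21a1 (4.06), the granin gene Chgb (7.05), the transferrin gene Trf (2.36) and the muscle creatine kinase gene Ckm (0.386). The highest were Cyp11a1 at 25.4 ± 17.6, Th at 16.6 ± 17.1, Afp at 129 ± 49.2 and Acta1 at 149 ± 59.0 TPM. In the kidney list, Cdh16 was the highest at 135 ± 0.035 TPM, and Slc34a1 had the largest ratio at 1.1.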
